A study of Mus musculus with 32 samples.

Results

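Of the 32544 genes in the count table, 10 encode the enzymes described here, which break down NAD+: the sirtuins *Sirt1* to *Sirt7*, the poly(ADP-ribose) polymerase *Parp1*, and the glycohydrolases *Cd38* and *Bst1*. They were chosen by symbol, and all 10 passed the low-count filter in every comparison, with 25 counts as the lowest value in any mouse. Each of these enzymes splits nicotinamide from NAD+. Sirtuins use NAD+ to take acetyl and other acyl groups off lysines, PARP1 builds ADP-ribose chains on proteins at DNA breaks, and CD38 and BST1, also known as CD157, are membrane enzymes that turn NAD+ into ADP-ribose and cyclic ADP-ribose. In the kidney, SIRT3 is known as the chief deacetylase of the mitochondrial matrix, which proximal tubule cells depend on for fatty acid oxidation.

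RNA of the kidney cortex was measured by bulk RNA-Seq in 32 mice aged 25 weeks, 1 library per mouse and 4 mice in each of 8 groups. All mice carried the *Col4a3*tm1Dec allele on C57BL/6J: Alport mice were *Col4a3*-/- and controls were *Col4a3*+/-, so that the controls were heterozygous and not wild type. Males and females of each genotype ate a purified control diet (vehicle) or the same diet with nicotinamide riboside (NR), a vitamin B3 form from which cells make NAD+, at 0.5% w/w from 10 weeks of age. The comparisons ask how the enzymes that spend NAD+ differed with disease, with NR and with sex.

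Libraries held 16621944–27778797 counts on genes, and levels are given as CPM, counts scaled to library size with TMM factors. *Col4a3* was at 49.03–83.67 CPM in the 16 Alport mice and at 58.97–200.1 CPM in the 16 controls, with an overlap that came from the NR-treated male controls (58.97–160.3 CPM). The log2 difference of *Col4a3* from its neighbor *Col4a4* separated the genotypes in all mice. It lay between -1.77 and -1.28 for *Col4a3*-/- and between -0.90 and -0.28 for *Col4a3*+/- mice, so that the genotype labels hold. Proximal tubule markers were abundant in every library, with *Slc34a1*, the main phosphate transporter of that segment, at a median of 7420 CPM in male controls on vehicle. Within NR-treated male Alport mice, the summed CPM of 14 proximal tubule markers was 9737 and 6553 in mice 1 and 3 but 24638 and 22954 in mice 2 and 4, and in NR-treated male controls it was 19448 and 21895 in mice 1 and 3 against 29171 and 33072 in mice 2 and 4. Results that rest on these mice are therefore also given without 1 of them at a time where this changed a call. No fit left out more than 1 mouse.

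Promoter sequence of 2 genes is shown because *Sirt3* was lower and *Cd38* higher in Alport mice of both sexes. They are the 250 bases before a RefSeq start of each gene (GRCm38.p6), chr7:140881870-140882119 on the minus strand for *Sirt3* and chr5:43868559-43868808 on the plus strand for *Cd38*, with capitals on any match to the motifs searched.
Sirt3: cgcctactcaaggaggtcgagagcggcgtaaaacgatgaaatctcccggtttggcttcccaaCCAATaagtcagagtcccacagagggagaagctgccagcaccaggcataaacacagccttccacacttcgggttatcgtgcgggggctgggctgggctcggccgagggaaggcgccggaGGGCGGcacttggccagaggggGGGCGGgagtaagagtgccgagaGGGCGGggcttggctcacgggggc
Cd38: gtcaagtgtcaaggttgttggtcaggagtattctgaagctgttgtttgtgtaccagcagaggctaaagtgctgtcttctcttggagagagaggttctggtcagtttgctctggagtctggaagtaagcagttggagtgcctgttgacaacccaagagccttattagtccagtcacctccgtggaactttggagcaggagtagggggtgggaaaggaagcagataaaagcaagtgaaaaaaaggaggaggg
Both windows lie inside the longer GENCODE gene coordinates given below. RefSeq lists another start for *Sirt3*, at the GENCODE gene's own end of the locus, and the 250 bases before that start held 21 CG dinucleotides and no match. The *Sirt3* sequence shown held 18 CG dinucleotides, more than 78.3% of 32851 promoters in the table, with 1 CCAAT box (CCAAT) and 3 GC boxes (GGGCGG). The *Cd38* sequence held 1 CG dinucleotide, against a median of 6 over all promoters, and none of the motifs. The search covered both strands, and the share of all promoters with a match was 33.8% for CCAAT, 32.7% for GGGCGG, 12.4% for TATAAA, 6.02% for the E-box CACGTG, 0.387% for the estrogen-related receptor site TGACCTTGA and 0.14% for the NF-kB consensus. A match is a run of letters and was not tested as a site.

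Per length, the mitochondrial *Sirt3* was the most abundant of these genes in vehicle-treated controls and *Bst1* the least. In CPM per kilobase of the longest coding transcript, vehicle-treated male controls had 74.4 ± 4.68 of *Sirt3* (mean ± SD, n = 4), 43.7 of *Sirt7*, 39.4 of *Sirt2*, 15 of *Parp1*, 9.51 of *Sirt4*, 6.53 of *Sirt5*, 6.02 of *Sirt1*, 4.45 of *Sirt6*, 1.85 of *Cd38* and 0.559 of *Bst1*. In vehicle-treated Alport males the same scale gave 37.1 ± 5.30 for *Sirt3* and 35.2 for *Sirt2*, so that the lead of *Sirt3* was within the spread of the mice. Vehicle-treated Alport females had 31.2 ± 6.51 of *Sirt3* and 33.5 of *Sirt2*. Lengths set this order in part: over all annotated exon bases *Sirt3* came first only in the vehicle-treated controls of both sexes.

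**Figure D1:**
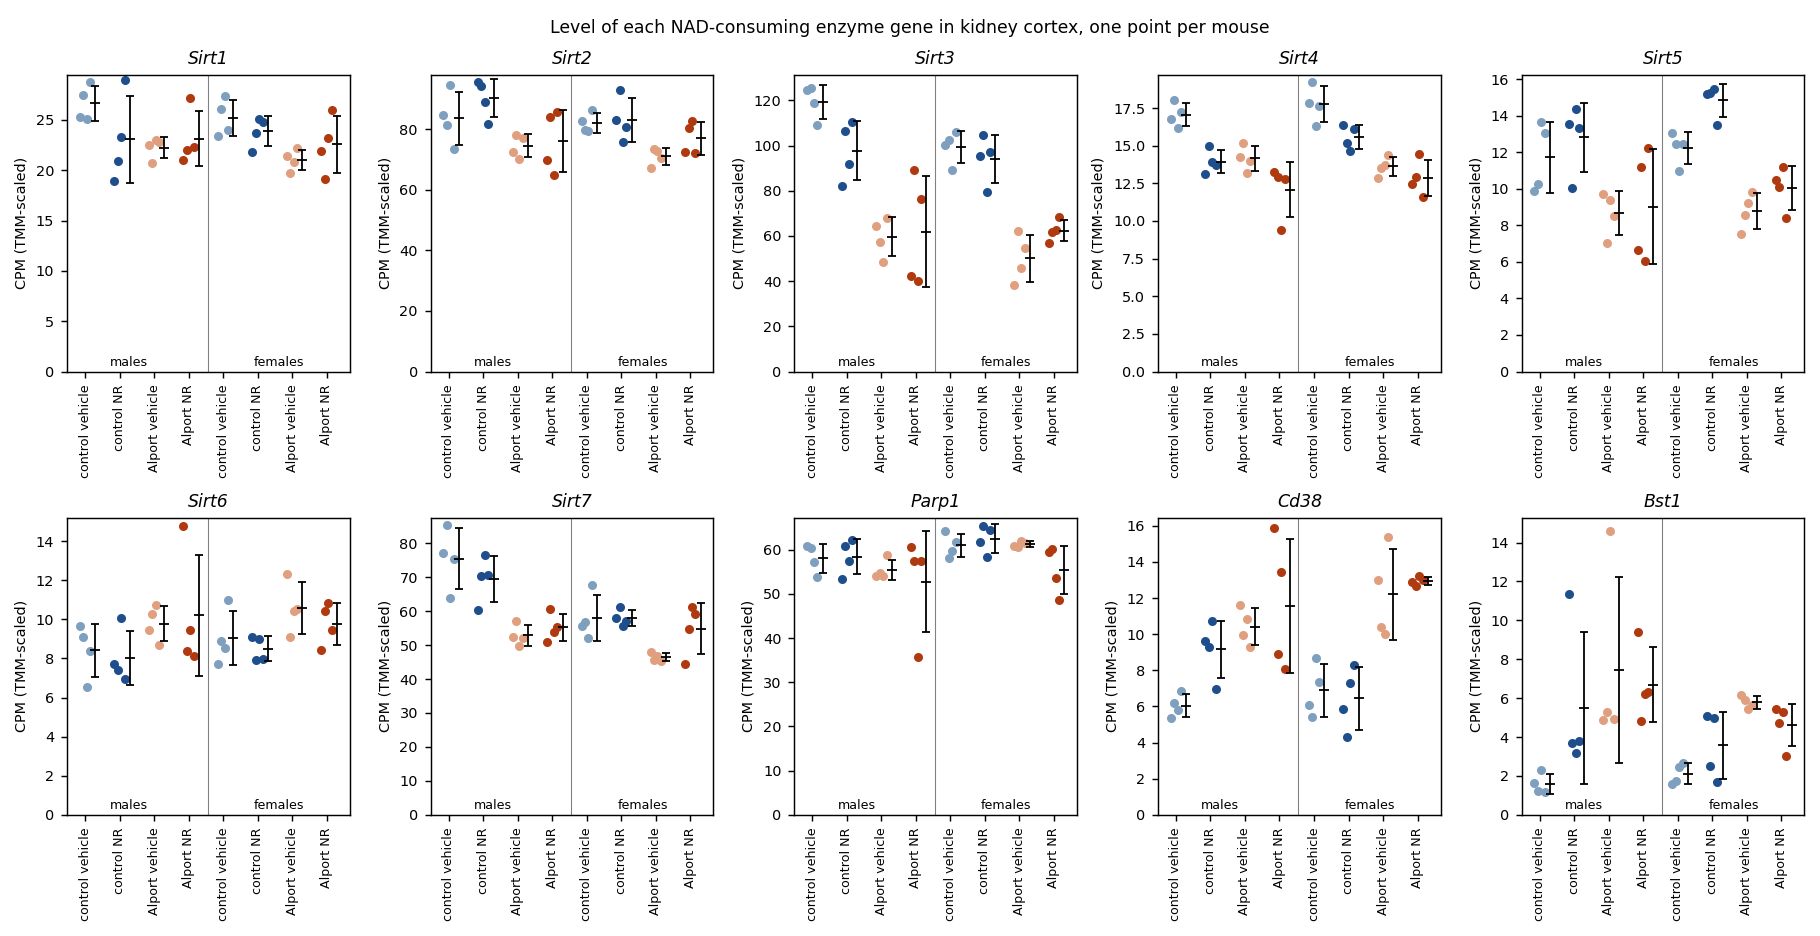
Level of each of the 10 genes in CPM (vertical axis from 0, 1 panel per gene) in the 8 groups (horizontal axis, males left and females right of the line). Each point is 1 mouse, and the bar gives the mean ± SD of 4 mice. *Sirt3* is at 109–125 CPM in vehicle-treated male controls and at 48.7–67.9 CPM in vehicle-treated male Alport mice, while *Parp1* overlaps between those groups.

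In vehicle-treated Alport mice against vehicle-treated controls, *Sirt3* and *Sirt7* fell and *Cd38* and *Bst1* rose in both sexes, and in females *Sirt1*, *Sirt2*, *Sirt4* and *Sirt5* also fell. *Parp1* and *Sirt6* did not pass the test in either sex. In males 4 of 10 genes passed an adjusted p of 0.05 (edgeR quasi-likelihood test, Benjamini-Hochberg), where 51% of all 15286 genes tested passed, and in females 8 of 10 passed, where 45.8% of 15709 did. By direction, 2 genes rose and 2 fell in males (26.8% and 24.2% of all genes), and 2 rose and 6 fell in females (24% and 21.8%). The median log2 fold change of the 10 genes was -0.13 in males and -0.20 in females, beside medians of 0.00 over all genes. The mice of the 2 genotypes did not overlap at 7 of 10 genes in males and 8 of 10 in females, where 50.3% and 44.3% of all genes did not overlap. The shares that passed lay below the background in males and above it in females, and with 10 genes neither is read as particular to them.

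*Sirt3* (chr7:140863666-140882309, minus strand in GENCODE M21, GRCm38) had the largest fall. Its level was 125, 125, 119 and 109 CPM in the 4 vehicle-treated male controls and 64.6, 57.5, 48.7 and 67.9 CPM in the vehicle-treated male Alport mice. Females on vehicle had 100, 102, 89.2 and 106 CPM as controls and 38.1, 62.1, 45.7 and 54.7 CPM as Alport mice. All 8 Alport mice were below all 8 controls on vehicle. The log2 fold change was -0.92 (SE 0.10, adjusted p = 1.75e-05) in males and -0.95 (SE 0.13, adjusted p = 0.000321) in females, about the same fall in each sex. Exons of *Sirt3* overlap those of *Ric8a* over 418 bases and of *Psmd13* over 342 bases on the other strand, 7.0% and 5.73% of its exon bases, and reads there could not be told apart if the counting ignored strand. *Ric8a* rose by a log2 of 0.31 in each sex and *Psmd13* had log2 fold changes of -0.24 in males and -0.05 in females. The share of *Sirt3* counts that came from the shared bases was not tested.

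*Sirt4* and *Sirt5*, the other mitochondrial sirtuins, were lower with less separation. *Sirt5* (chromosome 13), a desuccinylase of mitochondrial enzymes, was at 9.86, 10.3, 13.7 and 13.03 CPM in vehicle-treated male controls and 9.70, 7.04, 9.40 and 8.49 CPM in male Alport mice, and the highest Alport mouse stood just below the lowest control. Its log2 fold change was -0.35 (SE 0.15, adjusted p = 0.0646) in males and -0.44 (SE 0.11, adjusted p = 0.00785) in females. Leaving out vehicle-treated male control 1 or 2 brought the male value past the threshold, at adjusted p-values of 0.0404 and 0.0476. *Sirt4* (chromosome 5), an ADP-ribosyltransferase and lipoamidase, was at 16.2–18.0 CPM in male and 16.3–19.2 CPM in female controls, and at 13.2–15.2 and 12.8–14.4 CPM in Alport mice. It fell in females by 0.34 on the log2 scale (SE 0.08, adjusted p = 0.00602), and its male value of -0.19 (SE 0.09, adjusted p = 0.0922) did not pass although the groups did not overlap.

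Among the nuclear sirtuins, *Sirt7* (chromosome 11), which deacetylates histone H3 and acts in the nucleolus, fell in both sexes. Male controls on vehicle had 77.3, 85.4, 63.8 and 75.3 CPM against 52.3, 57.2, 49.7 and 52.2 CPM in male Alport mice, and female controls had 55.7, 56.7, 52.0 and 67.7 CPM against 48.0, 45.6, 46.9 and 45.3 CPM. No Alport mouse reached the controls of its sex. The log2 fold changes were -0.43 (SE 0.09, adjusted p = 0.00196) and -0.28 (SE 0.08, adjusted p = 0.0148). *Sirt7* shares 124 exon bases, 2.41% of its own, with *Mafg* on the same strand, and *Mafg* fell by 0.33 in males and 0.28 in females on the log2 scale. *Sirt1* (chromosome 10), the deacetylase of p53 and PGC-1α, was at 25.1–28.7 CPM in vehicle-treated male controls and at 20.7–23.0 CPM in male Alport mice. Its log2 fold changes were -0.18 (adjusted p = 0.0788) in males and -0.22 (SE 0.08, adjusted p = 0.0354) in females, and the female call was lost without Alport mouse 1, 2 or 3 or control 2 or 3 (adjusted p of 0.0621–0.0855). *Sirt6* (chromosome 10), a chromatin deacetylase, had log2 fold changes of 0.30 in males and 0.27 in females, with 95% intervals of -0.01 to 0.60 and -0.03 to 0.57, and passed in females only without vehicle-treated female control 4 (adjusted p = 0.0415).

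*Sirt2* (chromosome 7), the cytosolic tubulin deacetylase, was at 79.3–86.1 CPM in vehicle-treated female controls and at 67.2–73.6 CPM in female Alport mice, a log2 fall of 0.17 (SE 0.06, adjusted p = 0.0381). The call was lost in 6 of the 8 fits that leave out 1 of these mice (adjusted p of 0.0526–0.0959), all but those without Alport mouse 2 or control 2. In males the groups overlapped, at 73.3–94.7 and 70.2–78.2 CPM. *Parp1* (chromosome 1), the main poly(ADP-ribose) polymerase of DNA damage signaling, was nearly flat: 60.8, 60.3, 57.1 and 53.8 CPM in vehicle-treated male controls, 54.0, 54.7, 54.0 and 58.8 CPM in male Alport mice, 58.2–64.2 CPM in female controls and 60.7–62.0 CPM in female Alport mice. The 95% interval of its log2 fold change was -0.14 to 0.17 in males and -0.07 to 0.17 in females.

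The glycohydrolases moved the other way. *Cd38* (chr5:43868553-43912375, plus strand) was at 5.35, 6.17, 5.80 and 6.85 CPM in vehicle-treated male controls and at 11.6, 9.93, 10.8 and 9.28 CPM in male Alport mice. Female controls had 6.06, 5.42, 8.68 and 7.38 CPM and female Alport mice 13.01, 10.4, 10.03 and 15.4 CPM. The genotypes did not overlap in either sex, and *Cd38* rose 1.82-fold in each (log2 of 0.86, SE 0.13, adjusted p = 0.00017 in males and 0.86, SE 0.19, adjusted p = 0.00341 in females).

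*Bst1* (chr5:43818885-43843986, plus strand) ends 24566 bases before *Cd38* begins, and the pair are known as paralogs. Its level was 1.64, 1.24, 2.31 and 1.19 CPM in vehicle-treated male controls and 4.87, 5.29, 14.6 and 4.95 CPM in male Alport mice, of which mouse 3 stood far above the rest. Female controls had 1.59, 1.73, 2.47 and 2.69 CPM and female Alport mice 6.18, 5.93, 5.43 and 5.62 CPM. The fold was 4.95 in males (log2 2.31, SE 0.40, adjusted p = 0.000487) and 2.80 in females (log2 1.49, SE 0.19, adjusted p = 0.000195). *Bst1* shares 98 exon bases with *Fbxl5* on the other strand, 2.95% of its own, and *Fbxl5* had log2 fold changes of -0.32 and -0.14.

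Cell makeup moved with these results. Fewer cells of a type and less RNA per cell cannot be told apart in bulk cortex. The summed CPM of 14 proximal tubule markers was 28192–31722 for male controls on vehicle and 10495–17702 for Alport males, and 24847–31477 and 10848–18482 for females, and all 14 markers fell in both sexes with a median log2 fold change of -1.07 in males and -0.95 in females. *Sirt3* stood at -0.92 and -0.95, beside those medians. *Slc34a1* had medians of 7420 and 3474 CPM in male controls and Alport mice, and the endocytic receptor gene *Lrp2* 2693 and 1200 CPM. Of the immune markers, 13 of 13 tested rose in males and 10 of 13 in females, with a summed CPM of 64.6–88.6 in male controls and 376–560 in male Alport mice. *Ptprc* (CD45) went from a median of 9.02 to 48.3 CPM and the macrophage gene *Cd68* from 1.91 to 14.6 CPM in males. The B cell gene *Cd79a* was low, with male medians of 0.282 and 1.25 CPM and overlapping ranges of 0.171–0.761 and 0.488–1.99 CPM. Endothelial markers rose in 6 of 7 cases in males and 4 of 7 in females, all 8 fibroblast markers rose in each sex, 7 and 6 of the 10 loop and collecting duct markers fell, and 5 of 6 podocyte markers rose in each sex. No marker list held a gene at 0 in every mouse. The part of cell makeup in the changes of the 10 genes was not tested.

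**Figure D2:**
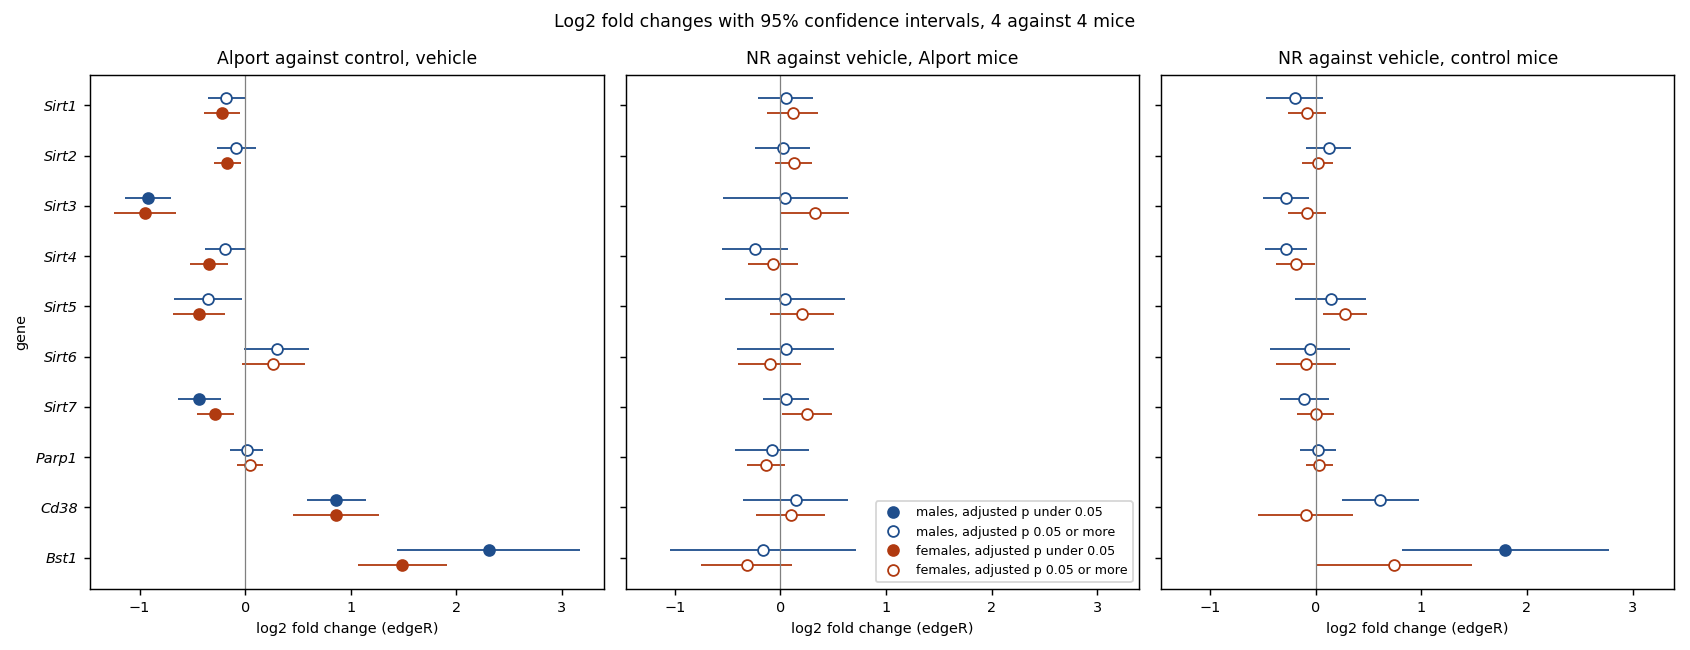
Log2 fold changes (horizontal axis) of the 10 genes (vertical axis) with 95% confidence intervals in 3 comparisons, males in blue and females in red, 4 against 4 mice each. Filled points passed an adjusted p of 0.05 (edgeR), and the only filled point outside the disease comparison is *Bst1* in NR-treated male controls, at 1.80.

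With NR, none of the 10 genes passed the test in Alport mice of either sex, by edgeR, DESeq2 or limma-voom, and at an unadjusted p under 0.05 there were 0 of the 10 in males and 1, *Sirt7*, in females. Over all 15500 genes in males edgeR called 0%, with 785 at an unadjusted p under 0.05, while DESeq2 called 62 genes and limma-voom 0. In females edgeR called 0.477% of 15712 genes, with 16.7% at an unadjusted p under 0.05. In males the groups overlapped at all 10 genes, where 3.43% of all genes did not overlap. In male Alport mice on NR, *Sirt3* was at 42.2, 89.3, 40.1 and 76.2 CPM beside 48.7–67.9 CPM on vehicle, so that mice 2 and 4 lay above and mice 1 and 3 below every vehicle-treated mouse. These are the mice with the higher and lower proximal tubule marker sums given above. The log2 fold change was 0.05, with a 95% interval of -0.55 to 0.64, beside a disease difference of -0.92. *Sirt5* split the same way, at 6.64, 11.2, 6.04 and 12.2 CPM, with a 95% interval of -0.52 to 0.61 on the log2 scale.

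In NR-treated Alport females, *Sirt3* was at 57.0, 61.6, 62.8 and 68.2 CPM beside 38.1, 62.1, 45.7 and 54.7 CPM on vehicle. Its log2 fold change was 0.32 (SE 0.15, 95% interval -0.01 to 0.65, adjusted p = 0.306), and that of *Sirt7* was 0.25 (SE 0.10, 95% interval 0.02 to 0.49, adjusted p = 0.274). *Mafg*, which shares exon bases with *Sirt7* on the same strand, had 0.42 (SE 0.15, adjusted p = 0.21). *Parp1* was the only 1 of the 10 genes whose groups did not overlap, where 9.1% of all genes did not: it was at 59.5, 60.1, 53.6 and 48.6 CPM on NR and at 60.9, 60.7, 62.0 and 61.6 CPM on vehicle. The difference was small, at a log2 of -0.14 (SE 0.08, adjusted p = 0.406). *Cd38* stayed high, at 12.7–13.2 CPM on NR and 10.03–15.4 CPM on vehicle, and *Bst1* was at 3.05–5.43 CPM on NR and 5.43–6.18 CPM on vehicle, with a log2 fold change of -0.32 and a 95% interval of -0.75 to 0.11. The immune marker sum ranged from 74.2 to 443 CPM in these mice on NR and from 310 to 559 CPM on vehicle.

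In control mice, *Bst1* rose with NR in males. The 4 NR-treated male controls had 11.3, 3.70, 3.16 and 3.81 CPM against 1.64, 1.24, 2.31 and 1.19 CPM on vehicle, and mouse 1 was far above the others. The log2 fold change was 1.80 (SE 0.44, adjusted p = 0.0475), the only call among the 10 genes, where 4.53% of all 14696 genes passed. Without NR-treated control 1 it was 1.16 (adjusted p = 0.0746), without NR-treated control 3 it was 1.98 (adjusted p = 0.0668), and leaving out any 1 of the vehicle-treated controls also lost the call (1.68 to 2.03, adjusted p of 0.0601–0.143). *Cd38* was at 9.63, 9.31, 10.7 and 6.97 CPM on NR, all above the 5.35–6.85 CPM on vehicle, with a log2 fold change of 0.61 (SE 0.17, 95% interval 0.24 to 0.98, adjusted p = 0.0642). Without NR-treated control 4, the lowest of them, it was 0.73 (adjusted p = 0.0139).

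Some sirtuins of NR-treated male controls lay below those on vehicle without passing the test, while *Sirt2* and *Sirt5* had log2 fold changes of 0.12 and 0.14. *Sirt3* was at 82.3, 107, 92.0 and 110 CPM against 109–125 CPM (log2 -0.28, 95% interval -0.50 to -0.06, adjusted p = 0.123), and *Sirt4* at 13.1–14.99 CPM against 16.2–18.0 CPM, with no overlap (log2 -0.28, adjusted p = 0.101). Mice 1 and 3, with the lower *Sirt3*, also had the lower proximal tubule marker sums given above. In all, 3 of the 10 genes did not overlap between these groups (*Cd38*, *Bst1* and *Sirt4*), where 13.3% of all genes did not. The summed endothelial markers were at 531–757 CPM in NR-treated and 357–397 CPM in vehicle-treated male controls, 7 of 7 of these markers rose with a median log2 of 0.72, and 4 of 8 fibroblast markers rose. The part of these cell types in the values of *Bst1*, *Cd38* and the sirtuins was not tested.

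In female controls none of the 10 genes passed by edgeR, DESeq2 or limma-voom, where edgeR called 6.18% of 14951 genes, and 2 of the 10, *Sirt4* and *Sirt5*, were at an unadjusted p under 0.05, as 22.8% of all genes were. *Sirt5* was at 15.2, 15.3, 15.5 and 13.5 CPM on NR, all above the 11–13.02 CPM on vehicle, and was the 1 gene of 10 without overlap, where 14.4% of all genes had none (log2 0.28, SE 0.10, adjusted p = 0.104). *Bst1* was at 5.08, 2.52, 4.98 and 1.67 CPM against 1.59–2.69 CPM (log2 0.74, 95% interval 0.00 to 1.48, adjusted p = 0.22), with 2 mice above and 2 within the vehicle range. *Cd38* had a log2 fold change of -0.10 (95% interval -0.55 to 0.36). The sex difference in the NR effect on *Cd38* in controls, -0.69 (SE 0.28, adjusted p = 0.23, female minus male), did not pass, where 0.683% of 15379 genes did.

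Set against vehicle-treated controls, NR-treated Alport mice kept the direction of the disease comparison at *Sirt3*, *Cd38* and *Bst1*. This comparison shares its controls with the disease comparison. Passing genes were 5 of 10 in males, where 21.2% of all genes passed, and 4 of 10 in females, where 23.5% did. *Cd38* was higher by a log2 of 0.99 (SE 0.23, adjusted p = 0.0169) in males and 0.92 (SE 0.16, adjusted p = 0.00298) in females, and *Bst1* by 2.12 (SE 0.30, adjusted p = 0.00353) and 1.13 (SE 0.26, adjusted p = 0.0124). *Sirt3* was lower by 0.89 (SE 0.25) and 0.66 (SE 0.09), *Sirt4* by 0.45 and 0.46, and *Sirt7* by 0.40 in males alone, with -0.07 in females. In males these calls were fragile: without NR-treated Alport mouse 3, *Sirt3* (-0.73, adjusted p = 0.0575), *Sirt4* and *Sirt7* no longer passed, without NR-treated Alport mouse 1 neither *Sirt3* (-0.77, adjusted p = 0.0615) nor *Sirt7* did, and leaving out any 1 of the 4 male controls lost 2 to 4 of the 5 calls. *Bst1* passed in all 8 of these fits.

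Sex differed at *Sirt3* and *Sirt7* among vehicle-treated controls, both lower in females. For *Sirt3* the 4 females (89.2–106 CPM) lay below the 4 males (109–125 CPM), with a log2 difference of -0.24 (SE 0.07, adjusted p = 0.0238), and for *Sirt7* the ranges were 52.0–67.7 and 63.8–85.4 CPM, with -0.36 (SE 0.10, adjusted p = 0.0191). These were 2 of 10 genes, where 31.7% of 14990 genes passed. Without male control 2 neither passed (*Sirt7* -0.29, adjusted p = 0.0531), and without male control 1 or female control 3 *Sirt3* did not (adjusted p = 0.0669 and 0.0612). The sex difference in the response to disease passed at none of the 10, with 0 of them at an unadjusted p under 0.05, where 0.532% of 16152 genes passed: the difference was -0.06 for *Sirt3*, -0.04 for *Cd38* (95% interval -0.51 to 0.44) and -0.85 for *Bst1* (95% interval -1.85 to 0.15). The difference of the NR effect between the genotypes passed at none of the 10 in either sex, nor at any other gene by edgeR (0%, with 1398 genes at an unadjusted p under 0.05 in males and 1521 in females). DESeq2 called 20 and 30 genes, none of them among the 10. For *Bst1* that difference, Alport minus control, was -1.98 (SE 0.63, adjusted p = 0.435) in males and -1.08 (SE 0.42, adjusted p = 0.462) in females, and for *Sirt3* in females it was 0.39 (SE 0.17, adjusted p = 0.509).

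**Figure D3:**
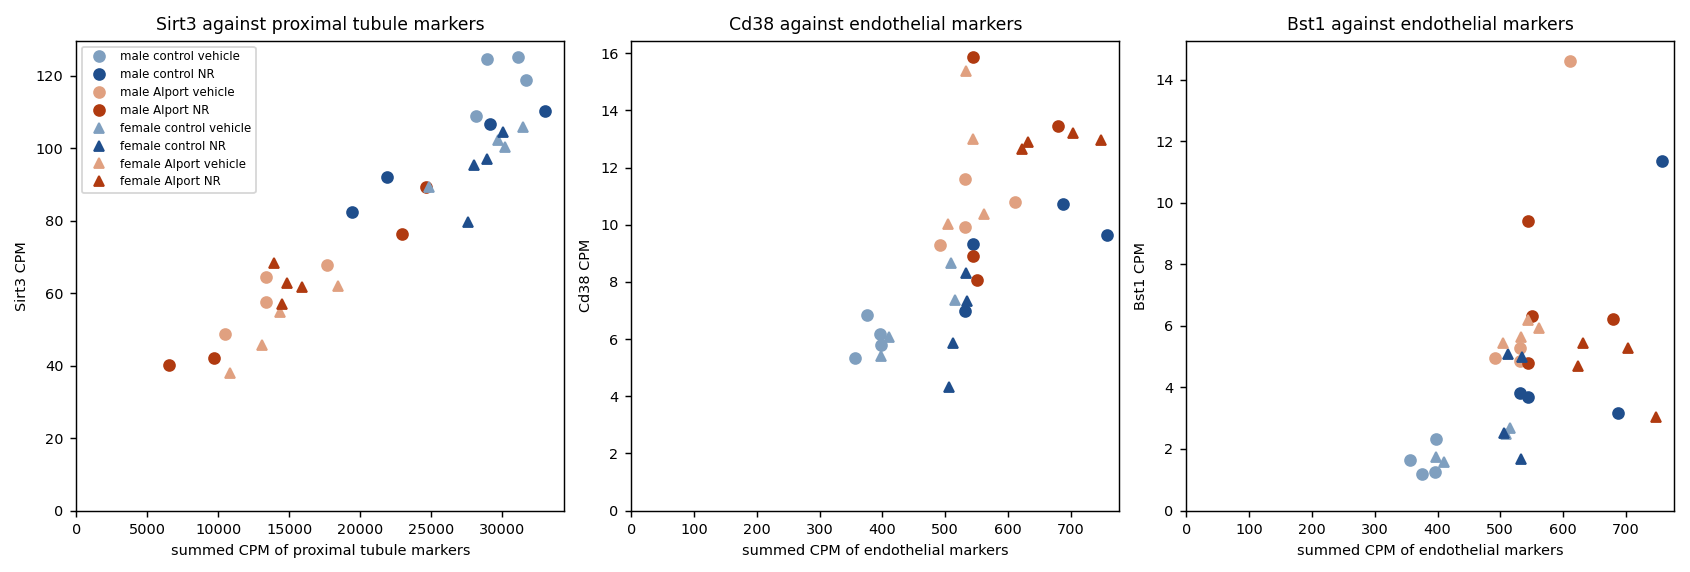
*Sirt3* against the summed CPM of proximal tubule markers (left), and *Cd38* and *Bst1* against the summed CPM of endothelial markers (middle and right), all axes from 0, 1 point per mouse, circles for males and triangles for females. *Sirt3* lies between 38.1 and 89.3 CPM in Alport mice and between 79.5 and 125 CPM in controls, and the male control of 11.3 CPM of *Bst1* has the highest endothelial sum, 757 CPM.

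Within each genotype, *Sirt3* followed the proximal tubule markers from mouse to mouse. Across the 16 Alport mice, log2 *Sirt3* against the log2 summed CPM of the 14 markers gave Pearson's r of 0.88 and Spearman's rho of 0.81, and r of 0.83 without the 2 mice farthest from the median sum. Across the 16 controls the values were 0.68, 0.72 and 0.61. The relation was not to these markers alone: with the fibroblast sum *Sirt3* had r of -0.77 in controls and -0.53 in Alport mice. With the endothelial sum r was -0.72 and -0.01. These are descriptions over mice of both sexes and treatments, and both measures come from the same library. For *Sirt2* r was 0.83 among Alport mice and -0.23 among controls, and for *Sirt5* it was 0.76 and -0.16. *Cd38* and *Bst1* had r of 0.70 and 0.81 with the endothelial sum in controls, and 0.41 and -0.18 in Alport mice. The control values include the difference between NR-treated and vehicle-treated males, which did not overlap in any of these measures. With the fibroblast sum *Cd38* had r of 0.58 (rho 0.71) in controls and 0.14 (rho 0.10) in Alport mice. *Bst1* and the fibroblast sum had r of 0.66 in controls (rho 0.68) and 0.60 in Alport mice (rho 0.43), and *Cd38* and the proximal tubule sum -0.64 (rho -0.47) and -0.63 (rho -0.58). Without the 2 mice farthest from the median proximal tubule sum, r for *Cd38* was -0.33 in controls and -0.59 in Alport mice. *Cd38* and the immune sum had r of 0.06 in Alport mice and 0.38 in controls, and with the mean log2 level of the immune markers, which weighs each marker alike, r was 0.22 and 0.53.

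The 10 genes did not vary as a block. In Alport mice *Sirt2* and *Sirt3* had the highest r of any pair (0.82, rho 0.77), and *Parp1* and *Sirt1* the lowest (-0.82, rho -0.74). In controls *Sirt3* and *Sirt7* were highest (r of 0.66, rho 0.72) and *Bst1* and *Sirt4* lowest (-0.77, rho -0.72). *Cd38* and its neighbor *Bst1* had r of 0.42 in controls and 0.06 in Alport mice, over 16 mice each.

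Among 16469 genes, those whose log2 CPM was most like that of *Sirt3* over the 32 mice were *Aldh6a1* (r of 0.981), an enzyme of valine breakdown in mitochondria, *Dgat2* (0.979), which makes triglycerides, and *Coq9* (0.975) of coenzyme Q synthesis. Their r within the 16 controls was 0.854, 0.904 and 0.752. *Cd38* was most like *Cd93* (0.909), a surface receptor of endothelial cells, *Flt4* (0.899), the VEGF receptor of lymphatic endothelium, and *Sema3f* (0.897), with r of 0.714, 0.666 and 0.566 within Alport mice. *Bst1* was most like *Scel* (0.911), *Foxc1* (0.887) and *Wnt7b* (0.876). For *Sirt2* the genes were *Rsph3a*, *Sdf2* and *Acot13* (0.889–0.914), for *Sirt5* *Bsg*, *Slc38a10* and *Mcee* (0.886–0.900), for *Sirt7* *Grpel2*, *Slc47a1* and *Zkscan1* (0.880–0.893), and for *Sirt4* *BC034090*, *Glb1l* and *Efcab12* (0.887–0.901). *Parp1* was most like *Slc13a4*, *Mogat2* and *Gm12942* (0.830–0.877), *Sirt1* like *8030462N17Rik*, *Zyg11b* and *Zfp869* (0.798–0.818), and *Sirt6* like *Plppr3*, *Hjurp* and *Cacnb3* (0.797–0.846). The genotypes form separate clusters, so these values hold the disease difference as well as the spread within groups.

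**Figure D4:**
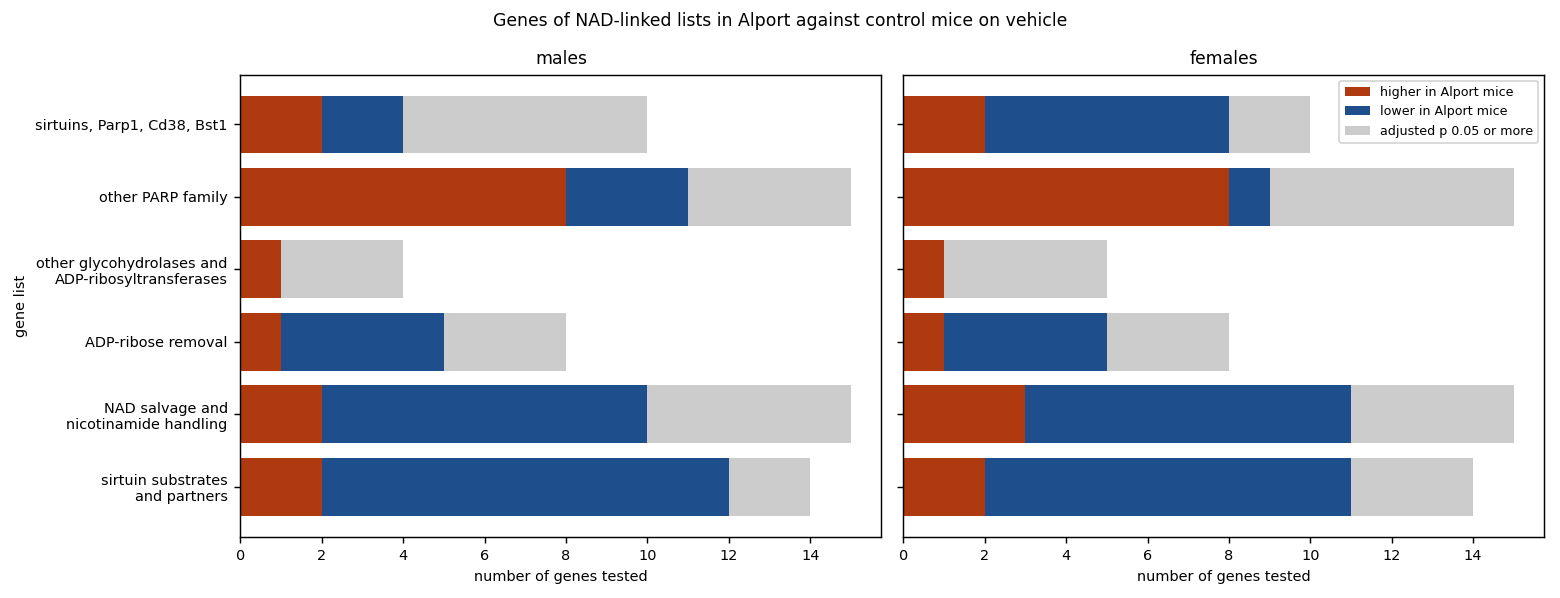
Number of genes tested (horizontal axis) in 6 NAD-linked lists (vertical axis) that were higher (red), lower (blue) or did not pass (grey) in vehicle-treated Alport against control mice, males left and females right. In the other PARP family 8 genes were higher in each sex, and in the sirtuin substrates and partners 10 were lower in males and 9 in females.

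Of 15 further PARP family genes, 8 rose in each sex, with a median log2 fold change of 0.33 in males and 0.31 in females, beside 26.8% and 24% of all genes that rose. *Parp14*, an interferon-linked mono-ADP-ribosyltransferase, rose by a log2 of 1.94 (SE 0.20) in males and 1.68 (SE 0.14) in females, its partner *Parp9* by 0.90 and 0.92, and *Parp3*, which acts in DNA repair, by 0.74 and 1.08. *Parp16* of the endoplasmic reticulum fell by 0.31 and 0.50, the only 1 to fall in both sexes. *Parp1* thus stood at 0.01 and 0.05 where 8 of 15 relatives rose. Of the other glycohydrolases and ADP-ribosyltransferases, *Art4* rose by 2.46 and 1.57 and was the only 1 of 4 and 5 tested to pass.

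Among 8 genes that remove ADP-ribose, *Macrod2* (-1.30 in males, -0.84 in females), *Macrod1* (-0.67 and -0.57) and *Oard1* (-0.37 and -0.40) fell in both sexes and *Adprh* rose (0.45 and 0.38). A further gene of the list passed in males alone (-0.24, and -0.17 in females) and another in females alone (-0.19, and -0.21 in males). Both were thus lower in each sex, and the sex difference in the disease response passed for neither. Of all genes, 24.2% fell in males and 21.8% in females. The median of the list was -0.23 and -0.18. In NAD+ salvage and nicotinamide handling, 8 of 15 genes fell in each sex, beside 24.2% of all genes in males and 21.8% in females, among them *Nadk2* (-0.90 and -0.89), the mitochondrial NAD kinase, *Nampt* (-0.87 and -0.90), the rate-limiting enzyme of salvage, and *Nmrk1* (-0.87 and -0.35), the kinase that takes up NR into NAD+ synthesis. *Nnmt*, which methylates nicotinamide, rose by 3.16 (SE 0.59) and 2.65 (SE 0.49), and *Aox1*, which oxidizes the methylated product, by 2.72 and 1.27.

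Of 14 sirtuin substrates and partners tested, 10 fell in males and 9 in females, beside the same shares of all genes, with medians of -0.51 and -0.58. The acetyl-CoA synthetases *Acss1* (-0.78 and -0.90) and *Acss2* (-1.04 and -0.63), and *Idh2* (-0.85 and -0.74), a SIRT3 target that makes mitochondrial NADPH, fell the most. *Rela* (0.83 and 0.70) and *Trp53* (0.65 and 0.73), the NF-kB subunit and p53, rose. Protein and acetylation were not measured in these libraries.

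Among the sirtuin substrates and partners, *Acadl*, an acyl-CoA dehydrogenase, rose with NR in male (0.58, adjusted p = 0.0322) and female (0.52, adjusted p = 0.0116) controls, and *Idh2* in female controls (0.23, adjusted p = 0.0436). *Sirt3* itself had log2 fold changes of 0.05, 0.32, -0.28 and -0.08 with NR in Alport males, Alport females, male controls and female controls. In the other lists, *Parp8* fell by 0.79 (adjusted p = 0.0236) in Alport females, *Parp3* fell by 0.48 (adjusted p = 0.0291) and *Aox1* rose by 1.91 (adjusted p = 0.0373) in male controls, and *Pnp*, which splits NR to nicotinamide, rose by 0.36 (adjusted p = 0.00766) in female controls.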

How the data were processed

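Kidney cortex RNA of 32 mice was isolated on spin columns, and poly(A) libraries were sequenced by a service provider. The authors processed the reads with BioJupies and deposited a table of raw counts per gene symbol, which was used here. The build is mm10 according to the submitters' processing notes, and the aligner version, annotation and strand are not given in the sources used here. A log10 table of CPM values that the authors also deposited was not used. Within groups all 48 pairs of mice differed beyond sampling noise (lowest chi-square 7.56 per degree of freedom), and over all 28 pairs of groups 18 of 112 pairs of same-numbered mice had a correlation of deviations over 0.1 (-0.24 to 0.379). In 0 of the 28 did all 4 pairs exceed 0.1, and the main fits did not take the numbers as a pairing. This cutoff was a choice and not a test of pairing or batch. All 4 correlations were positive between NR-treated Alport females and NR-treated male controls (0.0364, 0.257, 0.203 and 0.235). They were all negative between NR-treated Alport females and vehicle-treated female controls (-0.117, -0.163, -0.106 and -0.0575). Calls that a replicate block changed are given below.

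The test was the quasi-likelihood F test of edgeR 4.0.16 in R 4.3.3, after filterByExpr (minimum count 10) and TMM scaling (factors 0.828–1.25), in 1 fit per comparison with its 8 mice, or 16 for interactions. Benjamini-Hochberg adjustment ran over all genes tested, and an adjusted p under 0.05 was called. The pipeline was tested on simulated counts. DESeq2 1.42.0, limma-voom (limma 3.58.1), 1 fit of all 32 mice, RLE size factors, no filter, a floor of 10 counts per mouse, a replicate block and leaving out each mouse were tried as alternatives, with a robust fit added after the data were seen. Exon overlaps and lengths came from GENCODE M21. The 10 genes and the gene lists were chosen with earlier results of these data known. Named beside the 10 genes were, per list, up to 3 genes in each direction with the largest change that passed in both sexes, those that passed with NR, 3 genes most like each of the 10, and fixed cell type markers. Apart from the genes named, 1 more that met the rule for NR is not reported here. Of the 10 genes, 9 matched the promoter table, without *Bst1*.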

Additional observations from a re-analysis of the deposited data

Results flagged for a closer look

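In groups of 4 mice, 6 of the 80 combinations of gene and group held a mouse far from the other 3 by Dixon's ratio at its 95% critical value, and chance gives about 1 in 20. *Bst1* was at 14.6 CPM in vehicle-treated male Alport mouse 3 and at 11.3 CPM in NR-treated male control 1, each the highest of its group. *Parp1* was at 58.8 CPM in vehicle-treated male Alport mouse 4, the highest, and at 35.8 CPM in NR-treated male Alport mouse 3, the lowest. *Sirt4* was lowest in that same NR-treated mouse, at 9.37 CPM, and *Sirt5* was lowest in NR-treated female control 4, at 13.5 CPM. NR-treated male Alport mouse 3 also had the lowest summed proximal tubule markers of all mice, 6553 CPM, and its part in these values was not tested.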

How the results depend on the processing

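In vehicle-treated Alport against control mice, *Sirt3*, *Sirt7*, *Cd38* and *Bst1* passed in both sexes under every alternative tried and without any 1 mouse. In males the fit of all 32 mice called 7 of 10 genes, adding *Sirt1*, *Sirt4* and *Sirt5*, where the main analysis called 4. For NR in male controls, where 1 of 10 passed, DESeq2 called 2 (with *Cd38*, adjusted p = 0.0142), and limma-voom, the replicate block and the robust fit called 0 (*Bst1* adjusted p = 0.0797, 0.0696 and 0.0513), with 0 to 2 without 1 mouse. In NR-treated Alport against vehicle-treated control males the replicate block called 2 of 10 in place of 5, and 1 to 5 passed without 1 mouse. For female against male controls the fit of all 32 mice called 1 in place of 2, and 0 to 2 passed without 1 mouse. With the replicate block, *Sirt1* (adjusted p = 0.0586) and *Sirt2* (0.0686) in Alport females and *Bst1* (0.0503) in NR-treated Alport females against vehicle-treated controls no longer passed. *Sirt1* and *Sirt2* in Alport females were also lost in the fit of all 32 mice (0.0532 and 0.0612). The floor of 10 counts per mouse lost them too (0.0539 and 0.0577), and *Sirt2* was lost with no filter (0.062). In NR-treated Alport against vehicle-treated control males, *Sirt4* was lost with no filter (0.0558) and with that floor (0.0527). Same-numbered mice of NR-treated male Alport and control groups had correlations of deviations of 0.0399–0.177, and their proximal tubule sums were low in mice 1 and 3 and high in mice 2 and 4 of both groups; in no pair of groups did all 4 correlations exceed 0.1. The causes were not tested.

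Log2 values near 0 changed sign. These were *Parp1* in Alport males in the fit of all 32 mice (-0.0730), *Sirt3* and *Sirt5* with NR in Alport males by limma-voom (-0.0241 and -0.0583) and with the replicate block (-0.0328 and -0.0085), *Sirt7* with NR in female controls by limma-voom (0.0058), in the fit of all 32 mice (0.0068) and with the block (0.0027), and the sex difference in the disease response of *Sirt3* in the fit of all 32 mice (0.0193) and of *Cd38* by DESeq2 (0.0037), RLE size factors (0.0037) and that fit (0.0467). Without 1 mouse, the NR effect in Alport males ranged from -0.0409 to 0.0933 for *Sirt1*, -0.0417 to 0.0883 for *Sirt2*, -0.19 to 0.21 for *Sirt3*, -0.14 to 0.20 for *Sirt5*, -0.18 to 0.14 for *Sirt6*, -0.15 to 0.0661 for *Parp1*, -0.0421 to 0.28 for *Cd38* and -0.37 to 0.40 for *Bst1*. In male controls it ranged from -0.19 to 0.0228 for *Sirt6* and -0.0141 to 0.0541 for *Parp1*, and in female controls from -0.0382 to 0.0524 for *Sirt2*, -0.16 to 0.0156 for *Sirt6*, -0.0495 to 0.0822 for *Sirt7* and -0.24 to 0.0574 for *Cd38*. *Parp1* in Alport males ranged from -0.0246 to 0.0321, the sex difference in the disease response from -0.19 to 0.0768 for *Sirt3* and -0.17 to 0.10 for *Cd38*, and that in the NR response of Alport mice from -0.19 to 0.10 for *Cd38* and -0.72 to 0.0134 for *Bst1*. The lowest count of a gene in a mouse was 25, for *Bst1*, and counting error is part of its spread between mice.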
